A study of Homo sapiens with 4 samples.

Results

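Kinesins are motor proteins that turn ATP into movement along microtubules, and a subset of them builds the mitotic spindle, moves chromosomes and divides the cell. The 10 genes described here (KIF20A, KIF20B, KIF11, KIF23, KIF2C, KIF4A, KIF14, KIF18A, KIF22 and KIFC1) were chosen by symbol as kinesins of the spindle and of cytokinesis, out of 23228 gene symbols in the files. They were measured in ES2, an established human ovarian cancer cell line, after 12 h with vehicle (0.1% DMSO) or with EC359 at 10 nM, an inhibitor of the leukemia inhibitory factor receptor LIFR. Each treatment had 2 libraries, which the study describes as biologically independent. The labels name no genetic change in either group, and the comparison stands for 1 cell line, 1 dose and 1 time. The question was how LIFR inhibition changes gene expression in these cells.

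In a dividing cell the mitotic kinesins share the work by stage. KIF11 and KIFC1 set the distance between the spindle poles, KIF2C, KIF18A and KIF22 act on chromosomes and microtubule ends, and KIF20A, KIF23, KIF20B, KIF4A and KIF14 organize the central spindle and the cleavage of the cell. Transcription of many of these genes peaks late in the cell cycle, through promoter elements known as the cell cycle genes homology region, and the CCAAT box, which binds NF-Y. The homology region was searched for here as TTTGAA or the close form TTTAAA, and other forms of it were not searched.

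Of the 10 kinesins, KIF20A fell with EC359, by 24.0%, and it was the member called at an adjusted p under 0.01 (the quasi-likelihood test of edgeR, Benjamini-Hochberg adjusted over 12706 tested genes). Of all tested genes, 0.795% were called lower and 0.299% higher. KIF2C followed at -10.1%, which did not pass this threshold, KIF11 had the highest value, 7.99% above vehicle, and the other members lay between -6.18% and 1.93%. No member was called higher. At an unadjusted p under 0.05, 3 members were lower and 1 was higher, where 11% and 10.7% of all tested genes were.

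The sequences before the transcription start of 4 members are shown because they span the observed range: KIF20A and KIF2C with the lowest fold changes, KIF11 with the highest, and KIF23, another central spindle kinesin, near no change. Each is the 200 bases upstream of the start in RefSeq on GRCh38.p14, 5′ to 3′ on the gene's strand. Capitals mark these elements in either orientation.
KIF20A promoter, chr5:138178912-138179111, plus strand: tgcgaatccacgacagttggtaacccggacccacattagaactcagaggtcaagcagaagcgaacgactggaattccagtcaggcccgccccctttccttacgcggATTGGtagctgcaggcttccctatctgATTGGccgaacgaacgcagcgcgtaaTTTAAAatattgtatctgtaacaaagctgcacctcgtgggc
KIF2C promoter, chr1:44739637-44739836, plus strand: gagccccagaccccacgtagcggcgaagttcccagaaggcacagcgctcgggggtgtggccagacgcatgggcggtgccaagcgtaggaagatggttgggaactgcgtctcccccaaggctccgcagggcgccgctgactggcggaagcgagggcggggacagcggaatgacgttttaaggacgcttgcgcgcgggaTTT
KIF11 promoter, chr10:92592930-92593129, plus strand: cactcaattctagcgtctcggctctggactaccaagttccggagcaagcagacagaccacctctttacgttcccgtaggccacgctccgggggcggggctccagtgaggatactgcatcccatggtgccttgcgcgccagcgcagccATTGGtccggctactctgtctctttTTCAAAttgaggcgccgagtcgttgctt
KIF23 promoter, chr15:69414149-69414348, plus strand: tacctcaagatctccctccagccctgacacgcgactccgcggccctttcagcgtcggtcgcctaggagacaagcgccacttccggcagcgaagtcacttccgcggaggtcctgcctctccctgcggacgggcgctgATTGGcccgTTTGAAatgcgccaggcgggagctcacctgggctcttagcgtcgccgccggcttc

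In KIF20A, TTTAAA began 41 bases before the start, and CCAAT boxes in reverse orientation (ATTGG) began 67 and 94 bases before it. In KIF11, TTTGAA in reverse (TTCAAA) began at 28 bases and a CCAAT box at 53 bases. In KIF23, TTTGAA began at 55 bases and a CCAAT box at 64 bases, and a TTTAAA began at 211 bases, outside the printed stretch. In KIF2C, TTTAAA began 3 bases before the start and ran across it, and no CCAAT was in the window. All 10 members had a RefSeq window of 300 bases (250 before and 50 after the start). TTTGAA or TTTAAA was in 9 of them, against 24% of 35116 windows of all genes, and CCAAT in 9, against 34.6%. Both kinds were in 8 members, against 9.27% of all windows. In KIF20B (25 and 31 bases) and KIFC1 (5 bases) the TTTGAA matches, in either orientation, lay only after the start. KIF14 had TTTGAA in reverse 2 bases after the start and TTTAAA 198 bases before it. KIF22 lacked TTTGAA and TTTAAA in this window, which does not show that it lacks other forms of the homology region. A match of this length is a description of the sequence, not a binding site.

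Reads counted on genes ranged from 25572494 to 31707553 per library, and raw counts on single members from 2546 to 11678. The 10 kinesins together took from 1896 to 1969 CPM, which scales counts to the library total. The transcript of LIFR, the target of EC359, was not called (log2 fold change 0.062, standard error 0.055, adjusted p = 0.555). The line expressed KRT7 and KRT18, with 6304 to 8979 raw counts, but EPCAM had at most 2 counts and MUC16 none. The rest of the epithelial and ovarian list was low beside KRT7 and KRT18. Raw counts were 556 to 770 for KRT8, 76 to 119 for WT1, 24 to 41 for PAX8 and 5 to 23 for KRT19. Of 7 immune and endothelial markers, 6 had at most 2 counts in any library, and CDH5, an endothelial cadherin gene, had 3118 to 3920. The summed epithelial list was 533 and 575 CPM with vehicle and 589 and 595 with EC359. The summed immune and endothelial list was 122 and 130 with vehicle and 124 and 127 with EC359, and their part in the results was not tested.

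Among the cytokinesis kinesins, KIF20A, also called MKLP2, carries the chromosomal passenger complex from the chromosomes to the central spindle at anaphase. KIF20A lies on chromosome 5 of GRCh37 from 137514408 to 137523412. It had 3686 and 3767 normalized counts with vehicle and 2895 and 2765 with EC359 (counts at the mean library size after TMM scaling). Both EC359 libraries lay below both vehicle libraries, with a gap wider than the spread within either treatment. The means were 3726 ± 57.3 and 2830 ± 91.9 (SD, n = 2 each). The log2 fold change was -0.40 (standard error 0.042, 95% interval -0.49 to -0.30, adjusted p = 0.00160 by edgeR). Without EC359 replicate 1 the log2 fold change was -0.43, and without EC359 replicate 2 it was -0.36. Without vehicle replicate 1 it was -0.41, and without vehicle replicate 2 it was -0.39. The call of KIF20A was kept without either vehicle library. It was lost without either EC359 library, in fits where almost no gene of all tested was called. KIF20A is also among the genes that the study displays as ferroptosis repressing, with values from these same libraries, so that list gives its direction no independent support.

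The other 4 cytokinesis kinesins were not called. KIF23, or MKLP1, forms the centralspindlin complex with RACGAP1 and lies on chromosome 15 from 69706585 to 69740766. It had 6716 and 6290 normalized counts with vehicle and 6750 and 6506 with EC359, and the treatments overlapped. Its log2 fold change was 0.028 (95% interval -0.062 to 0.12, adjusted p = 0.742). KIF20B, which takes part in the last steps of cytokinesis, lies on chromosome 10 from 91461347 to 91534696. Its normalized counts were 7774 and 7191 with vehicle and 7777 and 7310 with EC359. This is the member with the value nearest to 0, at 0.012 on the log2 scale (95% interval -0.088 to 0.11, adjusted p = 0.917). KIF4A, a chromokinesin that works with PRC1 to limit the length of the central spindle, lies on chromosome X from 69509954 to 69640736. It had 4430 and 4283 normalized counts with vehicle and 4178 and 3996 with EC359. Its libraries did not overlap, but the log2 fold change of -0.092 did not pass (95% interval -0.18 to -0.0034, adjusted p = 0.216). KIF14, which binds PRC1 and citron kinase at the midbody, lies on chromosome 1 from 200520625 to 200589879. It had 4246 and 4167 normalized counts with vehicle and 4053 and 3975 with EC359, again apart and small in size (log2 fold change -0.068, 95% interval -0.15 to 0.014, adjusted p = 0.322).

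**Figure D1:**
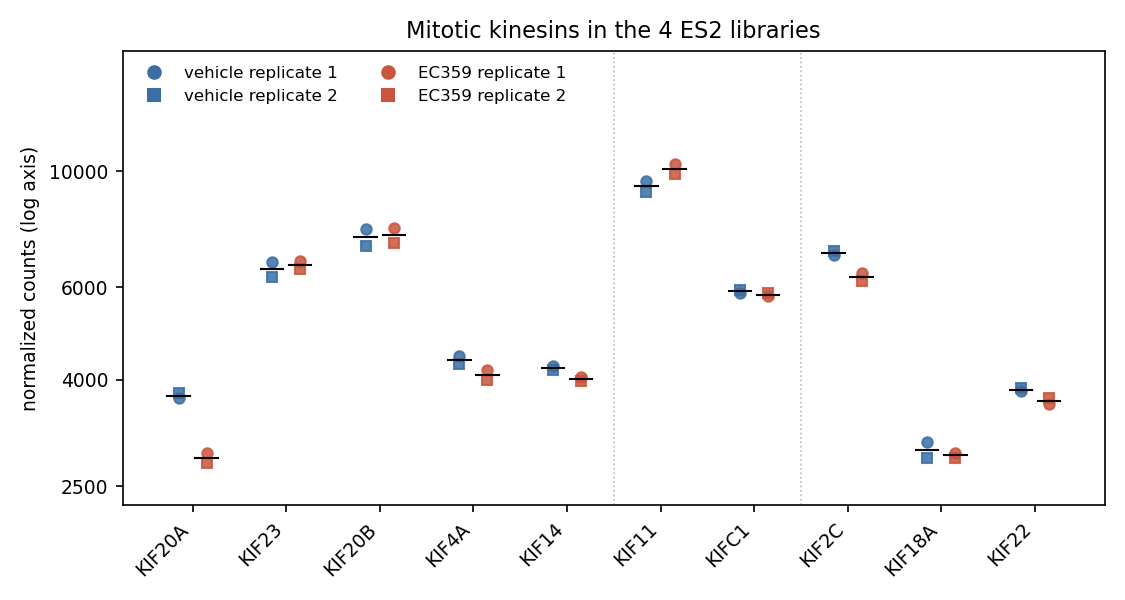
Normalized counts (log axis) of the 10 kinesins in each library, with vehicle in blue, EC359 in red, circles for replicate 1, squares for replicate 2 and a black line at the mean of each treatment. Dotted lines part cytokinesis, spindle bipolarity and chromosome kinesins. KIF20A sits at 3686 and 3767 with vehicle and at 2895 and 2765 with EC359, the widest gap among the members.

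The bipolarity kinesins pull in opposite ways on the spindle. KIF11, or Eg5, slides antiparallel microtubules apart to separate the poles and is the target of several antimitotic compounds. It lies on chromosome 10 from 94333862 to 94415152. KIF11 had 9573 and 9134 normalized counts with vehicle and 10329 and 9872 with EC359. KIF11 was higher in each EC359 library than in either vehicle library, by less than the replicates of a treatment differed. The log2 fold change was 0.11 (standard error 0.037, 95% interval 0.028 to 0.19, adjusted p = 0.116), so KIF11 was not called. KIFC1, or HSET, a minus-end motor that pulls poles together and clusters extra centrosomes in cancer cells, lies on chromosome 6 from 33359600 to 33377673. It had 5853 and 5937 normalized counts with vehicle and 5773 and 5852 with EC359. Vehicle replicate 1 and EC359 replicate 2 were nearly equal, and the log2 fold change was -0.020 (95% interval -0.096 to 0.055, adjusted p = 0.779). With total counts in place of TMM factors its sign turned, to 0.0035.

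Among the chromosome and microtubule end kinesins, KIF2C, or MCAK, does not walk but takes microtubules apart from their ends, and corrects wrong attachments at kinetochores. It lies on chromosome 1 from 45205490 to 45233439. KIF2C had 6919 and 7052 normalized counts with vehicle and 6386 and 6171 with EC359. Both EC359 libraries were below both vehicle libraries. The log2 fold change was -0.15 (standard error 0.035, 95% interval -0.23 to -0.076, adjusted p = 0.0364). KIF2C would be called at an adjusted p under 0.05, where 2.64% of all tested genes were lower and 1.68% higher. It passed 0.01 with edgeR's exact test (adjusted p = 0.00616) and with each library's length and GC trends removed (adjusted p = 0.000758), but not with DESeq2 or limma voom.

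KIF18A, which limits the length of kinetochore microtubules, lies on chromosome 11 from 28042166 to 28129703. It had 3040 and 2833 normalized counts with vehicle and 2897 and 2830 with EC359, and the treatments overlapped (log2 fold change -0.036, 95% interval -0.14 to 0.067, adjusted p = 0.700). KIF22, or Kid, a chromokinesin that pushes chromosome arms towards the spindle equator, lies on chromosome 16 from 29802048 to 29816706. It had 3800 and 3850 normalized counts with vehicle and 3594 and 3681 with EC359. The libraries were apart, but the log2 fold change of -0.073 was not called (95% interval -0.16 to 0.012, adjusted p = 0.298). For these 2 genes the intervals leave out a decrease as large as the estimate for KIF20A.

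**Figure D2:**
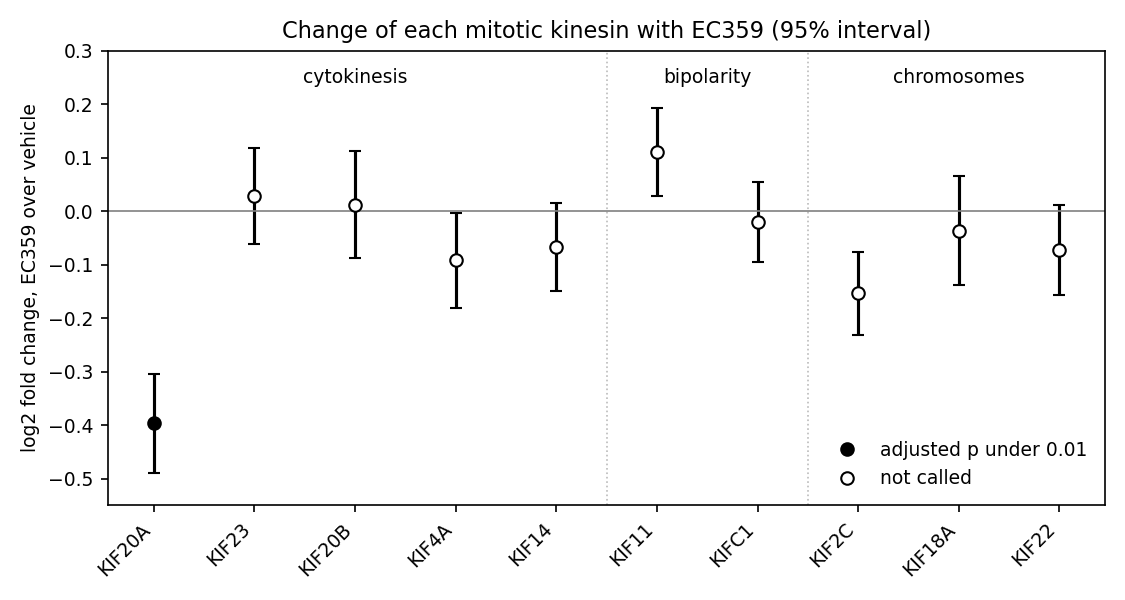
Log2 fold change of each kinesin, EC359 over vehicle, with its 95% interval. The filled point is called at an adjusted p under 0.01 and open points are not. The interval of KIF20A runs from -0.49 to -0.30, and that of KIF2C, the next lowest, from -0.23 to -0.076.

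Over the 10 members, 7 had a negative and 3 a positive log2 fold change, with a median of -0.052 against 0.0029 over all tested genes. Both EC359 libraries were below both vehicle libraries for 6 members and above for 1. The 6 include KIFC1, where vehicle replicate 1 had 5853 normalized counts and EC359 replicate 2 had 5852. Among all tested genes, 25.4% lay apart in the lower direction and 26.1% in the higher. In RNA from whole cultures, fewer cells in mitosis and less of a transcript per cell cannot be told apart.

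The amount of each kinesin relative to the other 9 needs no scaling between libraries. KIF20A had 7.04% and 7.42% as many counts as the other 9 members together with vehicle, and 5.60% and 5.51% with EC359. The log2 difference of this ratio was -0.38, and the exact permutation test (two-sided) gave p = 0.333, the smallest value that 2 libraries against 2 can give. Against KIF23 alone, KIF20A stood at 54.9% and 59.9% with vehicle and at 42.9% and 42.5% with EC359. Both ratios were therefore lower in each EC359 library, and this design cannot show by a permutation test that KIF20A differed from its relatives. KIF11 took 17.1% and 16.8% of the counts on the 10 kinesins with vehicle and 18.9% and 18.6% with EC359. KIF2C took 12.3% and 12.9% with vehicle and 11.7% in both EC359 libraries.

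**Figure D3:**
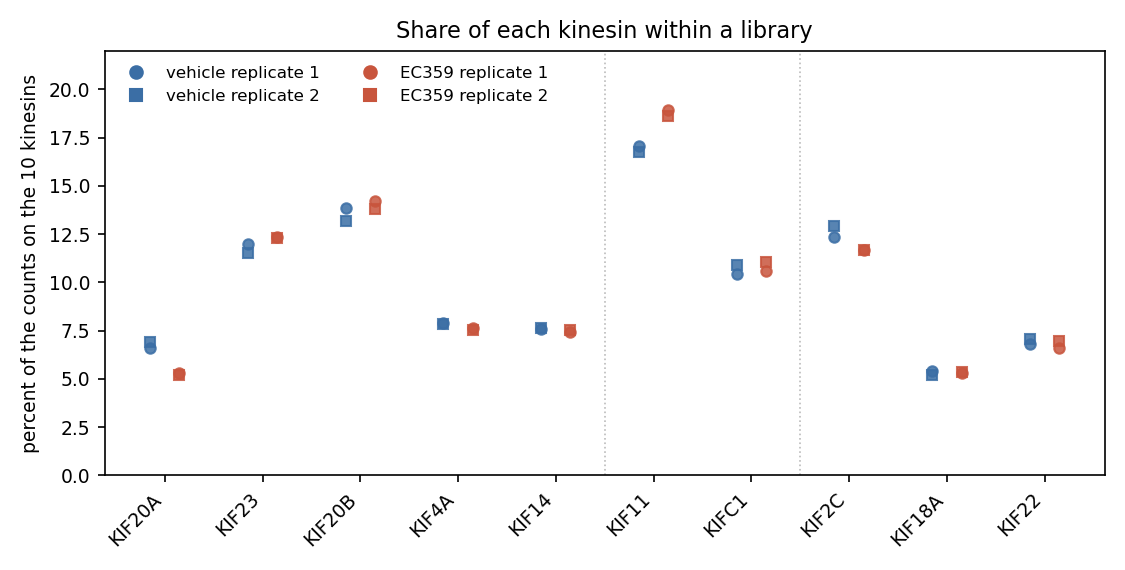
Percent of the raw counts on the 10 kinesins that each member took in each library, with vehicle in blue and EC359 in red. KIF20A took 6.58% and 6.91% with vehicle and 5.30% and 5.22% with EC359, while KIF11 took a larger share with EC359.

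Levels of different genes were compared as normalized counts per kilobase of the annotated main transcript. With vehicle, KIFC1 (2466) and KIF2C (2441) were highest, and their libraries overlapped. KIF11 (1865), KIF22 (1838) and KIF23 (1777) came next, also with overlapping libraries. KIF20A (1204) and KIF20B (1162) followed and overlapped each other, and then came KIF4A (993), KIF18A (859) and KIF14 (577), each apart from its neighbours. With EC359 KIF20A stood at 914 per kilobase, which overlapped KIF4A (931) and was below both libraries of KIF20B (1171). By the means alone, KIF20A went from position 6 to position 8, with the overlaps given above. KIF22 and KIF23, which were not called, exchanged positions 4 and 5.

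KIF4B, an intronless near copy of KIF4A, lies on chromosome 5 from 154393315 to 154397701, and its counts are uncertain because the genes are so alike. Of the 50-base windows of the KIF4A transcript, 14.9% occur in annotated transcripts of other genes, nearly all of them in KIF4B (14.0%). KIF4B had 21.7% and 22.1% as many raw counts as KIF4A with vehicle and 23.1% and 22.5% with EC359, and its log2 fold change was -0.036 (adjusted p = 0.798). For the other members this share ran from 0% to 6.40%. KIF20A shares exonic bases with CDC23 and BRD8 on the opposite strand (1.92% and 3.43% of its exonic bases). KIF23, KIF2C, KIF4A, KIF22 and KIFC1 also overlap genes on the opposite strand. Their shares run from 1.68% (KIF4A with PDZD11) to 14.0% (KIFC1 with the pseudogene RPL12P1). The strand setting of the counting is not given in the sources used here. BRD8 had a log2 fold change of -0.12 (adjusted p = 0.259) and CDC23 of -0.025 (adjusted p = 0.847), both smaller than that of KIF20A.

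Kinesins outside the 10 were examined with 2 lists. Of 6 other spindle kinesins, 5 had enough counts to be tested and 0 were called, with 1 at an unadjusted p under 0.05, and their median was 0.0022 on the log2 scale. DESeq2, limma voom and edgeR's exact test also called 0 of them. KIF15, which backs up KIF11 in pole separation, had 2217 and 2231 normalized counts with vehicle and 2523 and 2329 with EC359 (log2 fold change 0.13, adjusted p = 0.182). CENPE, the kinetochore kinesin, had a log2 fold change of 0.0022 (adjusted p = 0.988), and KIF18B one of -0.035 (adjusted p = 0.785). The second list, labelled interphase kinesins, held 32 genes, which were other kinesins, light chains and the accessory gene KIFAP3. Of these, 24 were tested and 0 were called, with 1 lower and 1 higher at an unadjusted p under 0.05. The same 3 tools again called 0 of them. Their median was 0.030, with 16 of 24 positive. The lowest adjusted p among them were 0.158 for KIF21A (log2 fold change 0.12), 0.215 for KIF13B (-0.20) and 0.244 for KIF3C (-0.14). KIF2B had no counts in any library.

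Genes that work beside the mitotic kinesins were examined in the same fit. Of 12 cytokinesis partners, 0 passed 0.01, while 4 were lower and 2 higher at an unadjusted p under 0.05 (11% and 10.7% of all tested genes), and the median was -0.058. The lowest values were those of PRC1, the microtubule bundler that KIF4A and KIF14 bind (8076 and 7836 normalized counts with vehicle, 7023 and 6686 with EC359, log2 fold change -0.21, adjusted p = 0.0120), and of PLK1, a mitotic kinase that binds KIF20A. PLK1 had 7363 and 8119 normalized counts with vehicle and 6426 and 6584 with EC359 (log2 fold change -0.25, adjusted p = 0.0146). Both were apart between treatments and just outside the threshold. DESeq2 and edgeR's exact test each called 2 partners lower, and limma voom called 0. Of the 6840 genes with an adjusted p from DESeq2, 2.56% were called lower, against 2.59% of 12706 genes with the exact test. BIRC5, the survivin subunit of the passenger complex that KIF20A carries, had a log2 fold change of -0.14 (adjusted p = 0.0563). The other subunits of this complex did not share 1 direction. INCENP had a log2 fold change of 0.094 (adjusted p = 0.220), CDCA8 of -0.079 (adjusted p = 0.272) and AURKB of -0.025 (adjusted p = 0.731).

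Of 14 spindle assembly genes, 1 was called lower and 0 higher, where 0.795% and 0.299% of all tested genes were, with a median of -0.062. The called gene was ASPM, a spindle pole protein, with 9932 and 9602 normalized counts with vehicle and 8485 and 7941 with EC359 (log2 fold change -0.25, standard error 0.039, adjusted p = 0.00781). ASPM was not called with total counts in place of TMM factors (adjusted p = 0.0105) or without a filter on low counts (adjusted p = 0.0171). AURKA and HMMR, both of the spindle pole, had log2 fold changes of -0.15 each (adjusted p = 0.0301 and 0.0627). Of 14 G2/M and checkpoint genes, 2 were called lower and 1 higher, against the same shares of 0.795% and 0.299%, with a median of -0.094. CCNB1 (log2 fold change -0.35, adjusted p = 0.000624) and CDC20 (-0.32, adjusted p = 0.00214) fell. CDK1, the partner kinase of cyclin B1, rose (0.20, adjusted p = 0.00638), but was not called without a filter (adjusted p = 0.0138). In each fit that left out 1 EC359 library, 0 genes of these lists were called.

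Of 16 regulators tied to transcription of late cell cycle genes, 0 passed 0.01, while 2 were lower and 3 higher at an unadjusted p under 0.05 (11% and 10.7% of all tested genes). DESeq2 called 1 higher and edgeR's exact test 2, and limma voom called 0. The shares called higher were 0.892% of 6840 genes with DESeq2 and 1.83% of 12706 with the exact test. RBL1, a pocket protein of the repressor complex at such promoters, had 2119 and 2174 normalized counts with vehicle and 2585 and 2545 with EC359 (log2 fold change 0.26, adjusted p = 0.0118). MYBL2, which encodes the activator B-MYB, had 1693 and 1711 with vehicle and 1978 and 2100 with EC359 (log2 fold change 0.26, adjusted p = 0.0203). RBL2 stood at -0.13 (adjusted p = 0.0803). RBL1 and MYBL2 were higher in both EC359 libraries, opposite in sign to KIF20A, and neither was called in the reported fit.

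**Figure D4:**
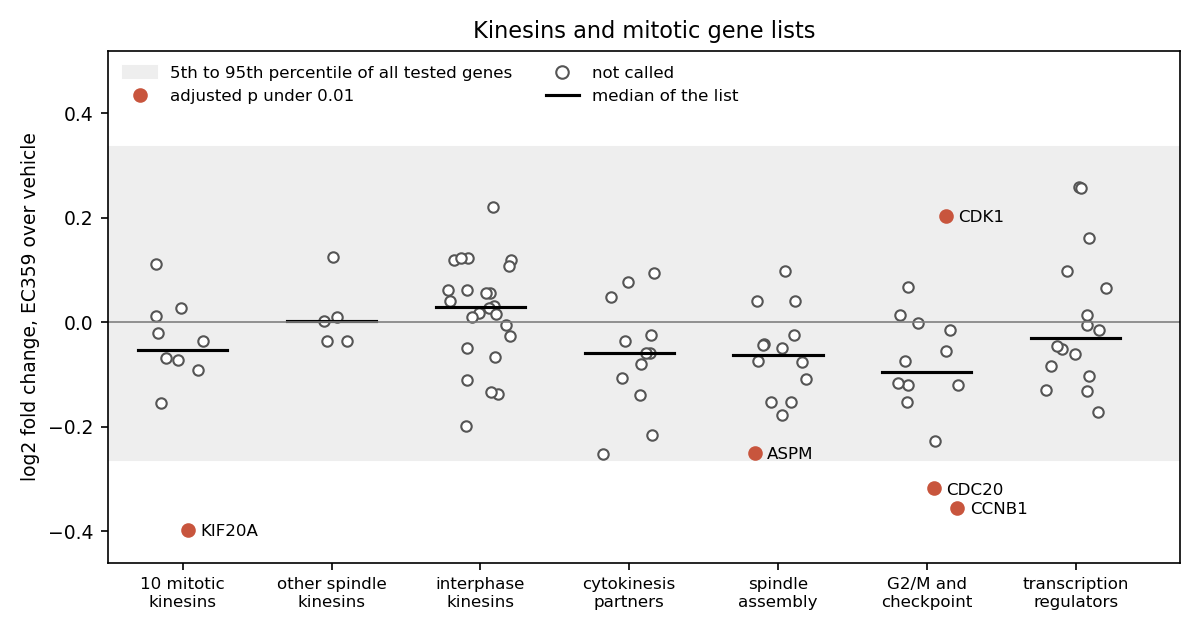
Log2 fold changes, EC359 over vehicle, of the tested genes of each list, with called genes in red and named, a black line at each median and a grey band from the 5th to the 95th percentile of all tested genes. KIF20A (-0.40) lies below every other gene plotted, and the medians run from -0.094 for G2/M and checkpoint genes to 0.030 for interphase kinesins.

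**Figure D5:**
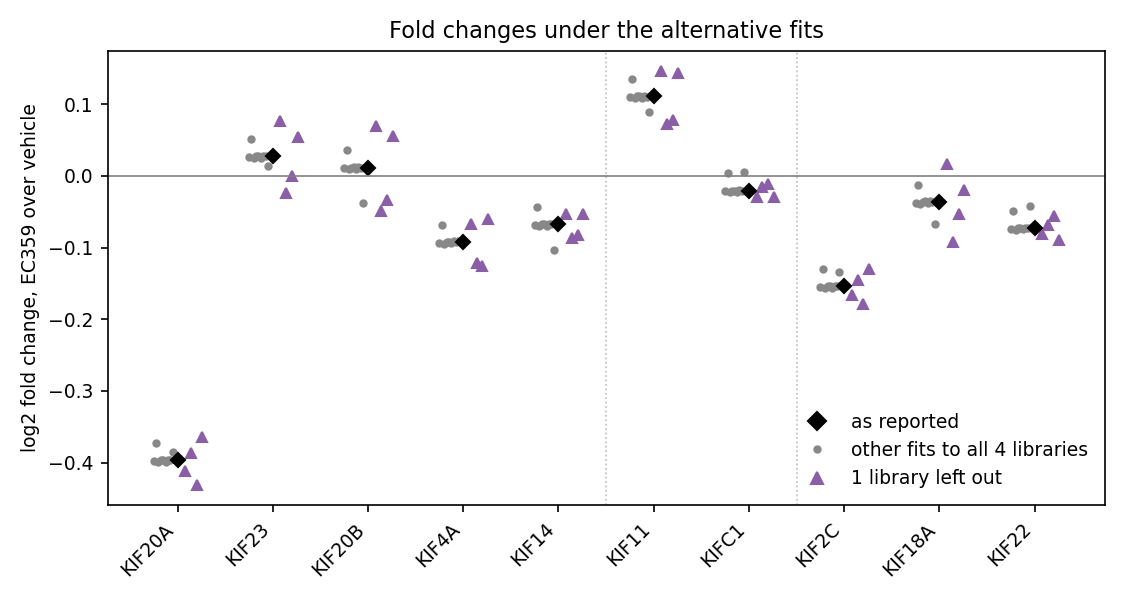
Log2 fold change of each kinesin in the reported fit (diamonds), in other fits to all 4 libraries (grey dots) and with 1 library left out (triangles). KIF20A stays between -0.43 and -0.36, while the triangles of KIF23, KIF20B and KIF18A fall on both sides of 0.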

How the data were processed

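RNA from 4 ES2 samples (2 per treatment) was sequenced as single-end reads of 50 bases from polyadenylated RNA. Per the labels, the authors called bases with CASAVA 1.8.2, aligned reads to hg19 with TopHat2 2.0.8b and counted them with HTSeq on RefSeq genes. The deposited files hold a raw read count for each gene symbol. Summary rows that name no gene were not used in scaling or testing. Reads on no gene were 10.9% to 12.0% of uniquely aligned reads and ambiguous reads 0.852% to 0.879%.

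Genes were filtered with filterByExpr (minimum count 10, minimum total 15), scaled with TMM factors and tested with the quasi-likelihood test of edgeR 4.0.16 in R 4.3.3. P was adjusted by Benjamini-Hochberg over 12706 genes and called under 0.01, the threshold of the study. Standard errors are the log2 fold change over the square root of F, and intervals cover 95%. Replicates differed by more than sampling noise (chi-square per degree of freedom 3.81 for vehicle and 2.70 for EC359). The test was checked on simulated counts.

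Alternatives used DESeq2 1.42.0, limma 3.58.1, other factors, filters and thresholds, a replicate block, removal of length and GC trends (95.9% of tested genes had both) and leaving out each library. Places, lengths and overlaps came from GENCODE lifted to GRCh37, the assembly of hg19. Promoter windows came from RefSeq on GRCh38.p14. The kinesins and gene lists were chosen with earlier results of these data known. All 10 members are named, and of each other list the called genes and up to 3 with the lowest adjusted p. CENPE, KIF2B, PDZD11, INCENP, CDCA8, AURKB and the genes overlapping KIF20A were added after values were seen.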

Additional observations from a re-analysis of the deposited data

How the results depend on the processing

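KIF20A kept its sign in all 13 alternative fits and was called in 11, and the exceptions were the fits without an EC359 library. With 1 library left out, its log2 fold change ran from -0.43 to -0.36, the members called lower from 0 to 1, genes of the 6 related lists from 0 to 11 lower and 0 to 3 higher, and all genes from 0 to 283 lower and 0 to 256 higher. The reported fit called 1 member lower, 3 listed genes lower and 1 higher, and 101 of all genes lower and 38 higher. The exact test, an adjusted p under 0.05, an unadjusted p under 0.01, the replicate block and removal of length and GC trends each called 2 members lower, the second being KIF2C. Listed genes called lower and higher numbered 6 and 2 with DESeq2, 7 and 3 with the exact test, 7 and 3 at an adjusted p under 0.05, 13 and 3 at an unadjusted p under 0.01, and 17 and 3 with length and GC trends removed. With total counts they numbered 2 and 2, and without a filter 2 and 0: ASPM was lost in both, and CDK1 without a filter. All genes called lower and higher numbered 175 and 61 with DESeq2, 329 and 232 with the exact test, 336 and 213 at an adjusted p under 0.05, 708 and 547 at an unadjusted p under 0.01, 630 and 514 with length and GC trends removed, and 44 and 17 without a filter, where more genes were tested (16620). The causes of these differences in calls were not tested.

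The replicate block called 847 genes lower and 692 higher, 16 and 3 of the listed genes, and 2 members lower and 1 higher (KIF11, log2 fold change 0.11, adjusted p = 0.000558). No source says that a replicate number marks a shared batch. Deviations of same-numbered libraries correlated at 0.0987 over all tested genes, those with low counts included. KIF20B, KIF11, KIF23, KIF4A, KIF14 and KIF18A were higher in replicate 1 than in replicate 2 of both treatments. KIF22 and KIFC1 were lower in replicate 1 of both, and KIF20A and KIF2C differed in direction between treatments. A shared replicate effect was not tested. Members near 0 changed sign: removal of length and GC trends gave -0.038 for KIF20B and 0.0061 for KIFC1, and total counts gave 0.0035 for KIFC1. Total counts moved the median of all genes by 0.024. With 1 library left out, KIF20B ran from -0.049 to 0.070, KIF23 from -0.024 to 0.076 and KIF18A from -0.092 to 0.016. Of 105 list medians, 18 moved by more than the replicate SD and 4 changed sign. The 105 include those at the alternative thresholds, which reuse the reported fit and so cannot move.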
